A study of Mus musculus with 24 samples.

Results

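Matrix metalloproteinases (MMPs), ADAMTS proteases and the tissue inhibitors of metalloproteinases (TIMPs) were followed through 24 mouse bladder tumors. The genes were chosen by name, as the protein-coding genes whose symbol is Mmp, Adamts or Timp followed by a number, a rule that uses no measured value. They numbered 45 of the 53465 genes in the table of counts, with 22 Mmp, 19 Adamts and 4 Timp genes. Mmp1a did not qualify, since the annotation lists it as a polymorphic pseudogene.

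The tumors were allografts of 8 lines called BURP (BBN-induced Urothelium Roswell Park), with 3 tumors a line. Each line started from the bladder tumor of 1 C57BL/6NTac mouse that drank water with 0.1% of the carcinogen BBN from the age of 8 weeks for at most 36 weeks, and it was then carried under the skin of hosts of the same strain and sex. Among the 6 lines named Ba/Sq, after the basal/squamous subtype, the donors of BURP-12BaSq, BURP-17BaSq and BURP-18BaSq were male. Female donors gave BURP-25BaSq, BURP-24BaSq and BURP-21BaSq. BURP-16SR, of the stroma-rich subtype, and BURP-19NE, of the neuroendocrine-like subtype, came from male mice. In the paper, 1 of the 3 BURP-16SR replicates correlated highly with the neuroendocrine-like class and the others with the stroma-rich class. It does not name that replicate. All tumors shared the strain, the exposure of the donor to BBN and the site under the skin, and no normal bladder was analysed here. Since BURP-16SR and BURP-19NE are each 1 line from 1 donor, subtype and line cannot be told apart, and p-values measure only the spread between these tumors.

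MMPs and ADAMTS proteases are zinc enzymes that cut proteins of the extracellular matrix. Most are secreted as inactive precursors, a few MMPs sit in the cell membrane, and in tumors they are made by carcinoma cells, fibroblasts, macrophages and neutrophils. TIMPs bind the active site and block it, and TIMP2 also takes part in the activation of the MMP2 precursor by MMP14 at the cell surface.

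Total counts per tumor ran from 9295747 to 25370356. Levels are given as CPM, the counts scaled to a common library size, after TMM normalization over the 24 tumors, and 3 counts, taken as the smallest level that can be read, came to between 0.106 and 0.409 CPM in 23 tumors. In tumor C102-M30 of BURP-25BaSq, where a ribosomal RNA gene took 61.9% of the counts, they came to 1.335 CPM. These floors cover counting error only. C102-M1, by its label a tumor of BURP-25BaSq, resembled BURP-21BaSq, so that this label is in doubt. The sum of 5 epithelial markers (Epcam, Cdh1, Krt5, Krt14 and Trp63) was between 6376 and 12370 CPM in the 18 Ba/Sq tumors, between 4.31 and 7.0003 CPM in BURP-16SR and between 1.59 and 2.71 CPM in BURP-19NE. The summed RNA of these 5 general epithelial and basal markers was thus far lower in the last 2 lines. In bulk tumors, fewer cells of a type and less RNA per cell cannot be told apart.

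All 45 genes had a count in some tumor, 30 of them in every tumor, and 25 reached a mean of 10 CPM in at least 1 line. Adamts19, Mmp20 and Mmp21 stayed under 1 CPM in every tumor. Divided by the length of the exons, the mean level over the 8 lines was highest for Timp2 at 50.0 CPM per kb, Mmp14 at 31.2 CPM per kb, Timp1 at 25.5 CPM per kb and Adamts1 at 21.4 CPM per kb. Next on this scale stood Timp3 at 17.9, Mmp2 at 14.1, Mmp13 at 13.5, Mmp3 at 10.8, Mmp9 at 6.61 and Mmp28 at 6.47 CPM per kb.

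**Figure D1:**
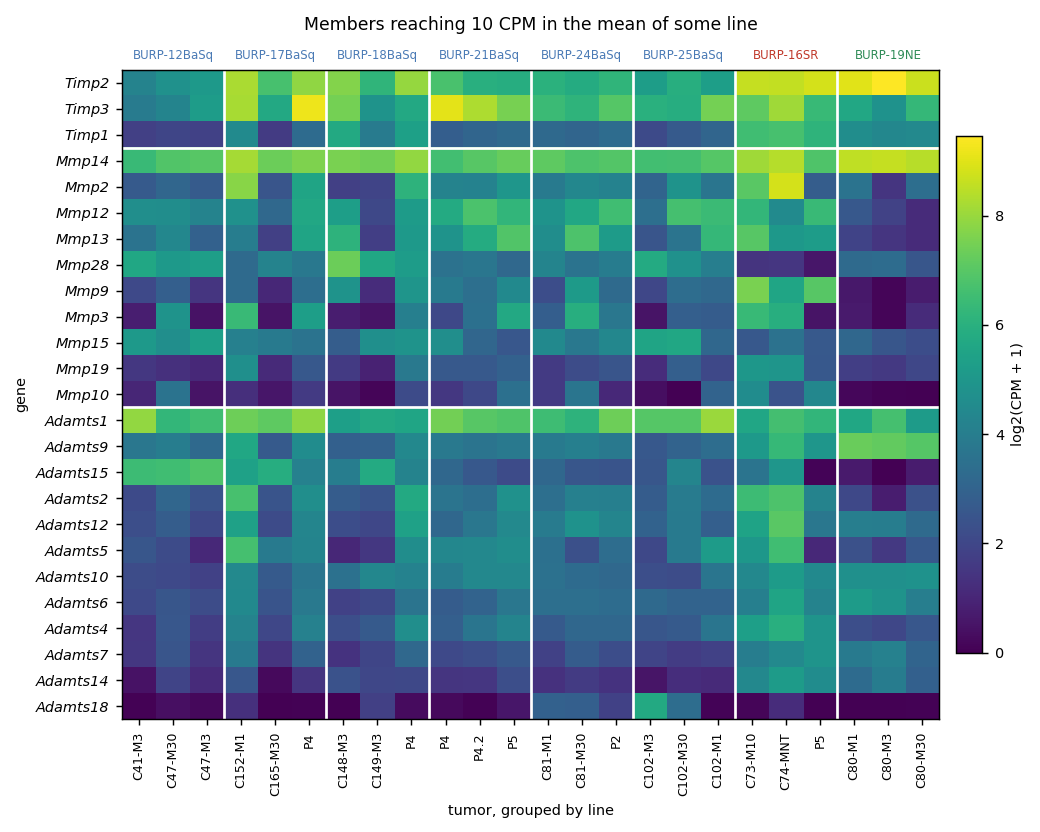
Level of the 25 genes that reached a mean of 10 CPM in at least 1 line, in each of the 24 tumors (columns, grouped by line) as log2(CPM + 1), ordered by family and mean level. Timp1, Mmp9 and Adamts14 are brightest in the 3 BURP-16SR tumors, and Adamts9 in the 3 BURP-19NE tumors, where Mmp9 is darkest.

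BURP-16SR was compared with the 18 Ba/Sq tumors to ask which of these genes differ in the stroma-rich line. Both abundant secreted inhibitors, Timp1 and Timp2, rose, together with the gelatinases Mmp9 and Mmp2 and with 7 Adamts genes, while Mmp28 fell. Of 40 genes tested, 14 were called higher and 1 lower, at an adjusted p under 0.05 and a change of more than 2-fold, which is 37.5% against 19.2% of all 21028 genes tested (10.5% higher and 8.62% lower). The median log2 fold change was 1.14 over the 40 genes and -0.03 over all genes. For 7 of the 40 genes, all of them called, the range of the 3 BURP-16SR tumors lay apart from that of the Ba/Sq tumors, and 11.4% of all genes tested did not overlap. Adamts13, Adamts19, Mmp20, Mmp27 and Timp4 were too low to be tested in this comparison and in that of BURP-19NE.

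Timp1 (ENSMUSG00000001131.11, chromosome X, 20870166 to 20874735, GRCm38), a secreted inhibitor with growth-promoting activity, was at 93.9 CPM in C73-M10, 104 CPM in C74-MNT and 69.6 CPM in P5 of BURP-16SR. In the Ba/Sq tumors Timp1 had a lowest level of 2.09, a median of 7.56 and a highest of 52.3 CPM. All 3 BURP-16SR tumors thus stood above every Ba/Sq tumor, with a log2 fold change of 3.0003 (SE 0.63, adjusted p = 0.00129, edgeR). Timp2 (chromosome 11, 118301069 to 118355740) was at 396, 384 and 455 CPM in the same 3 tumors, and its lowest, median and highest level in the Ba/Sq tumors were 17.9, 63.2 and 303 CPM. The groups did not overlap here either (log2 fold change 2.11, SE 0.56, adjusted p = 0.00852), but the call was lost when P5 was left out (adjusted p = 0.0501).

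Timp3 (chromosome 10, 86300372 to 86349506), which is held in the matrix and also inhibits ADAMTS proteases, was at 135, 271 and 81.1 CPM in BURP-16SR and at a lowest of 14.3, a median of 78.1 and a highest of 585 CPM in the Ba/Sq tumors. These ranges overlapped throughout, with a log2 fold change of 0.12 (SE 0.85, adjusted p = 0.938) that turned negative when C74-MNT or both tumors C102-M1 and C102-M30 were left out. Timp4 had at most 17 counts in any tumor, and its highest level, 1.26 CPM, was in C73-M10 of BURP-16SR. Of the exons of Timp3, 21.3% of the length lies opposite Syn3, and the strand setting used in counting is not given in the sources used here.

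**Figure D2:**
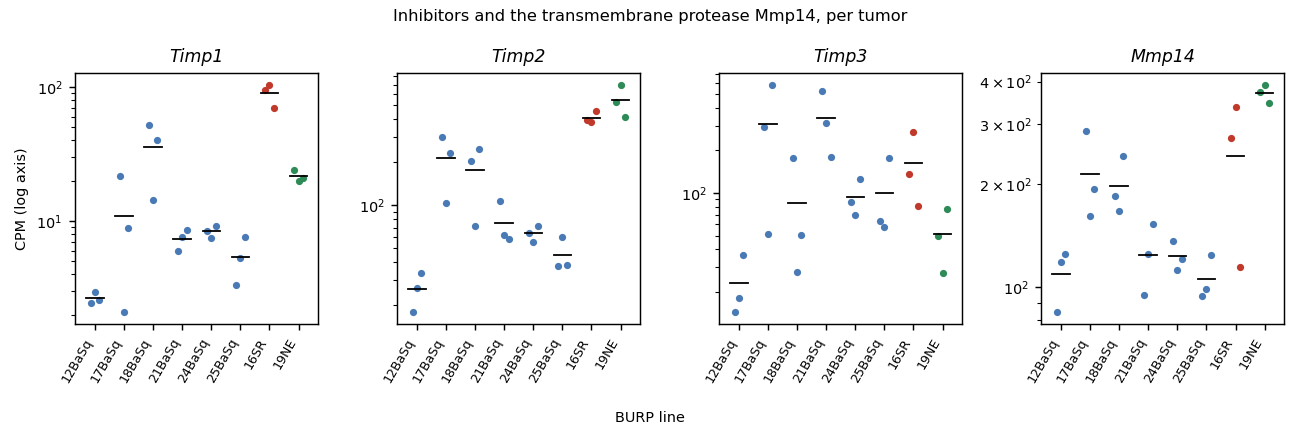
CPM (log axis) of Timp1, Timp2, Timp3 and Mmp14 in each tumor (points) by BURP line, with the mean of the line as a bar; Ba/Sq lines are blue, BURP-16SR red and BURP-19NE green. Timp1 lies between 69.6 and 104 CPM in BURP-16SR, above all other tumors, Timp2 lies between 384 and 700 CPM in BURP-16SR and BURP-19NE, above all Ba/Sq tumors, and Timp3 spans from 14.3 to 585 CPM among the Ba/Sq tumors.

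Mmp9 (chromosome 2, 164940780 to 164955850), a gelatinase that cuts denatured collagen and type IV collagen of basement membranes, stood at 186, 45.9 and 126 CPM in C73-M10, C74-MNT and P5. Among the Ba/Sq tumors it ran from 1.09 over a median of 8.60 to 34.9 CPM, so that the lowest BURP-16SR tumor was above the highest Ba/Sq tumor (log2 fold change 3.47, SE 0.64, adjusted p = 3.83e-04, edgeR). The other gelatinase, Mmp2 (chromosome 8, 92827291 to 92853420), was uneven in this line, with 131 and 453 CPM in C73-M10 and C74-MNT but 5.84 CPM in P5. Its level in the Ba/Sq tumors had a lowest value of 2.46, a median of 15.3 and a highest of 220 CPM. The groups overlapped, and the log2 fold change of 2.84 (SE 0.90, adjusted p = 0.0248) lost its call when C73-M10 or C74-MNT was left out.

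Mmp28 (chromosome 11, 83440768 to 83463071), known as epilysin and made by epithelia, was the member that fell. It was at 1.69, 1.85 and 0.487 CPM in BURP-16SR, and no Ba/Sq tumor was under 8.06 CPM, with a median of 18.02 and a highest level of 160 CPM. The log2 fold change was -4.48 (SE 1.01, adjusted p = 0.00259, edgeR), beside epithelial markers of which 5 of 5 were called lower. In BURP-19NE 5 of 5 were called lower against the Ba/Sq tumors too. Mmp28 was there at 8.70, 9.22 and 4.78 CPM and was not called (log2 fold change -2.05, SE 0.81, adjusted p = 0.0565). The part of epithelial cells in the Mmp28 level was not tested. Among the remaining MMPs of BURP-16SR, Mmp19, Mmp23 and Mmp25 were called higher with log2 fold changes between 1.83 and 2.21. The call of Mmp23 was lost in 11 of 21 fits with a tumor left out and in 2 of 7 other settings, with a log2 fold change down to 0.91, that of Mmp25 in 3 of 21 and that of Mmp19 without C73-M10 or C74-MNT. By contrast, the collagenases (0 of 3 tested), the stromelysins (0 of 3) and the membrane-spanning MMPs (0 of 4) had no called gene. Mmp14 was at 274, 337 and 115 CPM, with a log2 fold change of 0.81 (SE 0.31, adjusted p = 0.0544).

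Of 17 Adamts genes tested, 7 were called higher and none lower in BURP-16SR. Adamts14 (chromosome 10, 61197112 to 61273438), which trims the N-propeptide from procollagens, was at 20.4, 35.5 and 23.1 CPM in the 3 tumors against a lowest of 0.167, a median of 1.72 and a highest of 4.91 CPM. It had the smallest p of the 40 genes (log2 fold change 3.72, SE 0.48, adjusted p = 6.49e-06, edgeR), and the groups did not overlap.

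Adamts4 (chromosome 1, 171250421 to 171260637), an aggrecanase, was at 39.8, 61.4 and 28.7 CPM, above the Ba/Sq range of 1.82 to 24.3 CPM with a median of 5.88 (log2 fold change 2.35, SE 0.51, adjusted p = 0.00171). Adamts7 (chromosome 9, 90163069 to 90208071), which cuts the cartilage protein COMP, was at 15.1, 20.8 and 28.9 CPM and in the Ba/Sq tumors at a lowest of 1.64, a median of 3.05 and a highest of 13.8 CPM (log2 fold change 2.42, SE 0.43, adjusted p = 3.06e-04). Neither gene overlapped between the groups. Adamts2, Adamts6, Adamts9 and Adamts12 were also called, with log2 fold changes between 1.76 and 2.23 and overlapping tumors. The call of Adamts2 (adjusted p = 0.0411) was lost in 11 of 21 fits with a tumor left out and in 3 of 8 other settings, and those of Adamts6, Adamts9 and Adamts12 without C74-MNT.

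Markers of other cell types moved with this comparison. Of 9 fibroblast markers, 5 were called higher in BURP-16SR, and their summed level was 7513 CPM in C73-M10, 20025 CPM in C74-MNT and 596 CPM in P5, against 213 to 9798 CPM with a median of 1111 CPM in the Ba/Sq tumors. None of the 9 was at 0 throughout a group. Of 5 endothelial markers 3 were called higher, with a sum of 168 to 272 CPM against 22.9 to 293 CPM, and of 5 smooth muscle markers 2. All 4 mast cell markers were called higher, with a sum of 10.4 to 18.8 CPM against 0.0853 to 8.80 CPM. Of 8 macrophage markers 1 was called higher, of 5 T cell markers 1 higher and of 4 tested neutrophil markers 1 lower. In P5 the macrophage sum was 77.2 CPM (602 and 458 CPM in C73-M10 and C74-MNT) and the T cell sum 1.25 CPM (24.2 and 28.5 CPM), both the lowest of the line. The endothelial sum was not lowest there, at 185 CPM (168 and 272 CPM). P5, with the lowest fibroblast sum of its line, was also the lowest in Mmp2, Mmp3 (0.417 CPM, against 82.2 and 60.5 CPM), Adamts5 (1.11 against 31.3 and 93.7 CPM) and Adamts15 (0.0695 against 11.5 and 30.2 CPM). Mmp9, Timp1, Timp2, Adamts14, Adamts4 and Adamts7 were above all Ba/Sq tumors in P5 too. Without C74-MNT, the tumor with the highest fibroblast sum, 8 genes were called in place of 15, and without C73-M10 there were 10. Without P5 there were 16. What part these cells had in any of the calls was not tested.

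**Figure D3:**
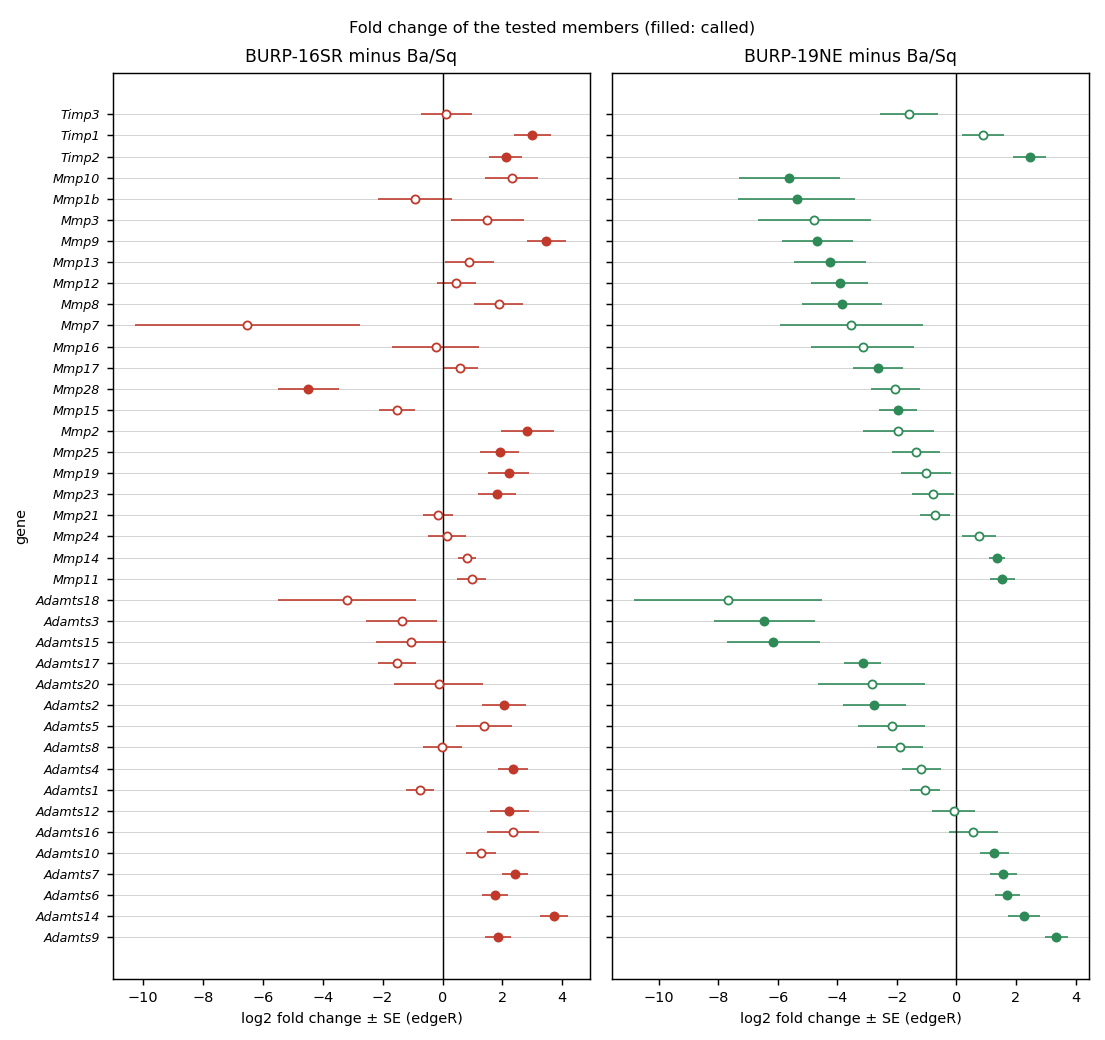
Log2 fold change (point) from edgeR for each of the 40 tested genes, in BURP-16SR (left) and BURP-19NE (right) against the same 18 Ba/Sq tumors, grouped by family. Bars are the SE, derived from the fold change and the F statistic of the test, and filled points passed the threshold. In BURP-16SR 14 of the 15 filled points lie right of 0, and in BURP-19NE 12 of 20 lie left of it.

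BURP-19NE, compared with the same Ba/Sq tumors, divided the genes. The membrane-anchored Mmp14, the inhibitor Timp2 and the proteoglycan-cutting Adamts9 rose, whereas Mmp9 and 5 of 7 tested genes of the Mmp cluster on chromosome 9 fell. Of 40 genes tested 20 were called, 8 higher and 12 lower, which is 50.0% against 24.3% of all 20995 genes tested (9.33% higher and 15% lower). For 8 of the 40 genes, all of them called, the tumors did not overlap, as was the case for 18% of all genes, so that this share was near the background. The median log2 fold change was -1.92 over the 40 genes, or -1.74 with Mmp1b, which had no count in BURP-19NE, at its bound, and -0.14 over all genes.

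Mmp14 (ENSMUSG00000000957.11, chromosome 14, 54431612 to 54445364), which cuts fibrillar collagen at the cell surface, was at 371.9, 391.7 and 347.0 CPM in C80-M1, C80-M3 and C80-M30. Its lowest, median and highest level in the Ba/Sq tumors were 84.5, 125 and 287 CPM. The groups did not overlap (log2 fold change 1.36, SE 0.26, adjusted p = 3.59e-04, edgeR). Timp2 behaved likewise, with 526, 700 and 414 CPM, all above the highest Ba/Sq tumor of 303 CPM (log2 fold change 2.46, SE 0.55, adjusted p = 0.00166). Timp1, at 23.9, 19.7 and 20.8 CPM, overlapped with the Ba/Sq tumors (log2 fold change 0.89, SE 0.72, adjusted p = 0.353), and so did Timp3, at 49.9, 27.2 and 77.5 CPM (log2 fold change -1.59, SE 0.98, adjusted p = 0.215).

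Mmp9 went the other way. It was at 0.544, 0.105 and 0.632 CPM in the 3 BURP-19NE tumors, from at most 14 counts in a tumor, below every Ba/Sq tumor (log2 fold change -4.67, SE 1.18, adjusted p = 0.00431, edgeR). Mmp2 was at 11.0, 1.73 and 9.56 CPM and was not called (log2 fold change -1.95, SE 1.20, adjusted p = 0.215). All 3 collagenases tested, Mmp13, Mmp8 and Mmp1b, were called lower, although Mmp8 had at most 2 counts and Mmp1b none in the line, and Mmp1b itself did not pass 1.02 CPM in any tumor. Mmp15, which spans the membrane as Mmp14 does, and Mmp17, held there by a GPI anchor, were called lower too, with log2 fold changes of -1.96 (SE 0.63, adjusted p = 0.0201) and -2.63 (SE 0.83, adjusted p = 0.0181). Mmp17 had only 5, 0 and 7 counts in the 3 BURP-19NE tumors. The calls of Mmp8 and Mmp1b were lost without any 1 BURP-19NE tumor, that of Mmp15 without C80-M3 or C80-M30 and that of Mmp17 without C80-M1 or C80-M3. Mmp11, or stromelysin-3, was called higher at 6.78, 7.39 and 8.53 CPM against a Ba/Sq range of 0.501 to 6.78 CPM with a median of 2.59 (log2 fold change 1.54, SE 0.42, adjusted p = 0.00742).

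The change in the makeup of the MMPs can be read from sums per length. Mmp14 made up 82.2%, 88.0% and 83.5% of the summed Mmp level (CPM per kb) in the 3 BURP-19NE tumors, 84.6% ± 3.0 (SD, n = 3). It made up 18.9% ± 1.8 (SD, n = 3) in BURP-16SR and between 14.2% and 61.2% in the Ba/Sq tumors, with a median of 27.8%. The sum itself was 73.4 ± 3.3 CPM per kb (SD, n = 3) in BURP-19NE, 217 ± 101 CPM per kb (SD, n = 3) in BURP-16SR and 44.3 to 198 CPM per kb in the Ba/Sq tumors. BURP-19NE thus lay within the Ba/Sq range in the sum and above all other tumors in the share of Mmp14. The summed Timp level was 171 ± 33.0 CPM per kb (SD, n = 3) in BURP-19NE, 226 ± 21.8 (SD, n = 3) in BURP-16SR and 9.10 to 142 CPM per kb in the Ba/Sq tumors. Divided by the Mmp sum this gave 2.21, 2.75 and 2.0 in BURP-19NE, above every Ba/Sq tumor, of which the highest was at 1.72 and the median at 0.628. In BURP-16SR the ratio was 0.823, 0.895 and 2.05, so that P5 stood apart from the other two.

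A cluster of 9 Mmp genes on chromosome 9 (7272514 to 7699585, GRCm38) holds the secreted collagenases, Mmp3, Mmp10, Mmp12, Mmp7, Mmp20 and Mmp27. Of its 7 genes tested, 5 were called lower in BURP-19NE and none in BURP-16SR, where 2 had an unadjusted p under 0.05. In BURP-19NE its summed level was 1.59 ± 0.53 CPM per kb (SD, n = 3). In the Ba/Sq tumors the sum ran from 1.80 to 89.7 CPM per kb, with a median of 30.2. In BURP-16SR it ran from 39.6 to 118 CPM per kb.

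Promoters are shown for Mmp13, Mmp12, Mmp3 and Mmp10, the cluster genes with the highest levels, since the same short motif lies close to the start in all of them. RefSeq windows of GRCm38.p6, from 250 bases before to 50 bases after the start, were found for 31 of the 45 genes. They were searched on both strands for the AP-1 site TGAGTCA, which reads TGACTCA on the other strand and is bound by Fos and Jun proteins. Some genes have more than 1 window, and the 31 genes had 34. The site lay in 6 of these 34 windows, against 5.20% of all 32851 windows of this length, and by gene in 6 of the 9 genes of the cluster and in 0 of the 22 others. A match is a description of the sequence and does not show that a protein is bound there. The 100 bases before the start are given 5′ to 3′ with the site in capitals.
Mmp13 (chr9:7272414-7272513, + strand): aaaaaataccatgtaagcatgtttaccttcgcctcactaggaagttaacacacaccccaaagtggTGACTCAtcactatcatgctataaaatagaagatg
Mmp12 (chr9:7347274-7347373, + strand): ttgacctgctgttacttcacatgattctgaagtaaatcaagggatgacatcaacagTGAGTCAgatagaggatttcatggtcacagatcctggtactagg
Mmp3 (chr9:7445722-7445821, + strand): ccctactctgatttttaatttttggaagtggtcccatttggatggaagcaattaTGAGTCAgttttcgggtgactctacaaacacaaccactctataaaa
Mmp10 (chr9:7502242-7502341, + strand): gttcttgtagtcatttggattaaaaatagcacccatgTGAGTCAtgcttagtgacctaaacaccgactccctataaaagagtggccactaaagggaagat
The first base of the site lies 35 bases before the start in Mmp13, 44 in Mmp12, 46 in Mmp3 and 63 in Mmp10. For Mmp12, the RefSeq start used here lies inside the GENCODE gene, which begins at 7344381.

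Mmp13 (7272514 to 7283331), collagenase-3, was at 2.76, 1.73 and 1.26 CPM in BURP-19NE. In the Ba/Sq tumors it had a lowest level of 2.39, a median of 25.9 and a highest of 116 CPM (log2 fold change -4.26, SE 1.21, adjusted p = 0.00993, edgeR). The ranges touched, since C80-M1 of BURP-19NE was above the lowest Ba/Sq tumor. Mmp12 (7344381 to 7369499), the macrophage metalloelastase, was at 5.10, 2.67 and 1.22 CPM against a Ba/Sq range of 3.16 to 108 CPM with a median of 37.0 (log2 fold change -3.92, SE 0.95, adjusted p = 0.00323). Of 8 macrophage markers, 1 was called higher and none lower in BURP-19NE. Their sum was 211 to 271 CPM, against 24.7 to 733 CPM with a median of 201 CPM in the Ba/Sq tumors. The part of macrophages in the Mmp12 level was not tested.

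Mmp10 (7502352 to 7510240), stromelysin-2, had 3, 1 and 0 counts in BURP-19NE, and in the Ba/Sq tumors its median was 1.68 CPM with a highest level of 11.9 CPM. It was called lower (adjusted p = 0.0142), and no fold is given at so few counts. Mmp3 (7445822 to 7455975), stromelysin-1, was at 0.586, 0.105 and 1.22 CPM in BURP-19NE and at a lowest of 0.368, a median of 6.13 and a highest of 82.8 CPM in the Ba/Sq tumors. The groups overlapped and Mmp3 was not called (log2 fold change -4.78, SE 1.90, adjusted p = 0.0565). The calls of Mmp10 and Mmp13 were lost when C80-M3 or C80-M30 was left out, and the call of Mmp12 remained whichever tumor was left out.

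**Figure D4:**
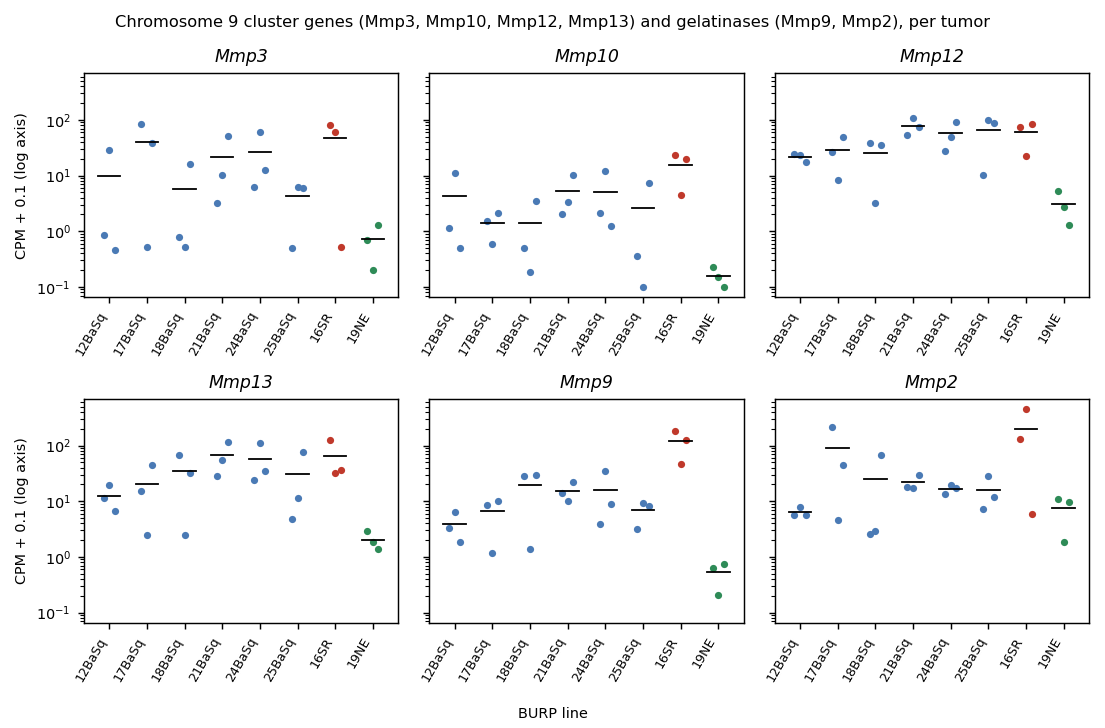
CPM + 0.1 (log axis) of 4 chromosome 9 cluster genes and of the gelatinases Mmp9 and Mmp2 in each tumor (points) by BURP line, with the mean of the line as a bar; Ba/Sq lines are blue, BURP-16SR red and BURP-19NE green. Mmp9 separates BURP-16SR (45.9 to 186 CPM) and BURP-19NE (0.105 to 0.632 CPM) from the Ba/Sq tumors on either side, while the replicate tumors of single lines lie far apart for Mmp3 and Mmp2.

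Among the Adamts genes of BURP-19NE, 5 of 17 were called higher and 4 lower. Adamts9 (chromosome 6, 92772699 to 92943492), which cuts the proteoglycan versican, was at 154, 143 and 123 CPM, far above the Ba/Sq tumors with a lowest of 5.04, a median of 12.7 and a highest of 48.1 CPM. It had the smallest p of the 40 genes (log2 fold change 3.35, SE 0.39, adjusted p = 1.05e-06, edgeR), and versican itself (Vcan) was at 1568 ± 200 CPM (SD, n = 3) in this line against a range of 10.52 to 348 CPM over the Ba/Sq tumors (log2 fold change 4.09, SE 0.62, adjusted p = 3.10e-05). Part of the exons of Adamts9, 9.18% of their length, lies opposite the gene A730049H05Rik, and whether counting used the strand is not given in the sources used here.

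Adamts14 was at 8.91, 14.8 and 6.45 CPM, above the highest Ba/Sq tumor of 4.91 CPM (log2 fold change 2.27, SE 0.52, adjusted p = 0.00213). Adamts10 (chromosome 17, 33524204 to 33553782), a protease of fibrillin microfibrils, was at 26.1, 25.9 and 27.0 CPM, and the Ba/Sq tumors ran from 2.57 over a median of 10.47 to 20.98 CPM. Its tumors did not overlap, but its adjusted p of 0.0498 rose above 0.05 in 16 of 21 fits with a tumor left out, and its call was lost in 6 of 7 other settings, DESeq2 among them. Adamts6 and Adamts7 were called higher with overlapping tumors, and both calls were lost without C80-M1, that of Adamts7 also without C80-M3.

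Adamts15 (chromosome 9, 30899155 to 30922452), a proteoglycan-cutting protease, had 14, 0 and 14 counts in BURP-19NE, or at most 0.632 CPM, under the lowest Ba/Sq tumor of 3.41 CPM (log2 fold change -6.16, SE 1.56, adjusted p = 0.00455). Adamts17 (chromosome 7, 66839735 to 67153171) was at 0.335, 0.157 and 0.180 CPM, from 3 to 8 counts, against a Ba/Sq range of 0.409 to 6.22 CPM with a median of 1.65 (log2 fold change -3.15, SE 0.62, adjusted p = 5.64e-04). Neither gene overlapped between the groups. Adamts2 and Adamts3, procollagen N-proteinases as Adamts14 is, were called lower where Adamts14 was higher, although Adamts3 had at most 1 count in a tumor of this line and the call of Adamts2 (adjusted p = 0.0480) was lost in 8 of 21 fits with a tumor left out.

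Fibroblast markers did not separate BURP-19NE from the Ba/Sq tumors, with 0 of 9 called at either side and a sum of 1166 to 1901 CPM. Neutrophil markers were lower, 3 of 4 tested, and their sum of 1.62 to 2.89 CPM lay under the Ba/Sq range of 8.46 to 1217 CPM. This list of 9 includes Ltf, which epithelial cells also make, and 3 of its genes were at 0 in all BURP-19NE tumors. Of the smooth muscle markers 2 of 5 were called lower, and of the mast cell markers 4 of 4 and of the skeletal muscle markers 5 of 5 were called higher. The skeletal muscle sum was 547 CPM in C80-M1 but 1.78 and 4.92 CPM in C80-M3 and C80-M30, within the Ba/Sq range of 0 to 34.6 CPM, and the mast cell sum was 18.7, 0.524 and 28.8 CPM in the 3 tumors. The part of these cells in the Mmp and Adamts levels was not tested. With 1 BURP-19NE tumor left out, 13, 11 and 13 genes were called in place of 20, for C80-M1, C80-M3 and C80-M30 in turn.

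A direct comparison of BURP-16SR with BURP-19NE, 3 tumors against 3, called 12 genes higher and 2 lower in BURP-16SR, of 29 tested. That is 48.3%, against 23.6% of all 17556 genes tested (14.8% higher and 8.86% lower). Of the 29 genes 15 did not overlap, where 51.7% of all genes did not, so that this share was at the background. Mmp9 differed most, by a log2 fold change of 8.16 (SE 0.79, adjusted p = 0.00126, edgeR), with 45.9 to 186 CPM on one side and 0.105 to 0.632 CPM on the other. All 4 cluster genes tested were higher in BURP-16SR. Mmp10, at 22.9, 4.38 and 19.6 CPM in BURP-16SR, was called (adjusted p = 0.00244) against at most 3 counts. Mmp13, at 127, 32.3 and 36.4 CPM, differed by 5.19 (SE 0.71, adjusted p = 0.00315) and Mmp12, at 75.2, 22.2 and 84.8 CPM, by 4.42 (SE 0.71, adjusted p = 0.00531), and neither these nor Mmp10 overlapped. Timp1 was higher by 2.15 (SE 0.21, adjusted p = 0.00122), whereas Timp2 did not differ beyond the spread (log2 fold change -0.32, SE 0.21, adjusted p = 0.279).

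Adamts2 was at 87.2, 111 and 17.8 CPM in BURP-16SR and at 3.18, 0.681 and 4.06 CPM in BURP-19NE, and Adamts4 in BURP-19NE at 3.77, 2.99 and 4.96 CPM. Both were higher in BURP-16SR without overlap, by log2 fold changes of 4.87 (SE 0.92, adjusted p = 0.00901) and 3.57 (SE 0.37, adjusted p = 0.00152). Adamts14, higher than Ba/Sq in both lines, was higher still in BURP-16SR (log2 fold change 1.49, SE 0.37, adjusted p = 0.0231). Adamts9, at 33.1, 79.8 and 30.1 CPM in BURP-16SR, and Mmp28, at 8.70, 9.22 and 4.78 CPM in BURP-19NE, were the 2 called lower, with log2 fold changes of -1.45 (SE 0.40, adjusted p = 0.0321) and -2.39 (SE 0.55, adjusted p = 0.0182). Mmp19 was at 30.8, 29.7 and 5.07 CPM in BURP-16SR and at 2.34, 1.94 and 3.02 CPM in BURP-19NE (log2 fold change 3.28, SE 0.70, adjusted p = 0.0136). Timp3, with the values given above, was higher by 1.76 (SE 0.55, adjusted p = 0.0481). The calls of Timp3, Mmp2 and Mmp3 were each lost when C73-M10, C74-MNT or any 1 of the BURP-19NE tumors was left out. Without C80-M1 7 genes were called in place of 14, and without C80-M3 there were 9. The call of Adamts9 was lost without C73-M10 or any 1 BURP-19NE tumor, those of Mmp28 and Mmp19 without C80-M1 or C80-M3, and that of Adamts14 without C74-MNT, C80-M1 or C80-M30 and in a fit of all 24 tumors. Fibroblast (3 of 9), endothelial (4 of 5) and smooth muscle markers (3 of 5) were called higher in BURP-16SR, and their part was not tested.

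BURP-24BaSq and BURP-16SR are the lines that the study treated with cisplatin, and their tumors were compared directly, the BURP-16SR tumors being those used above. BURP-24BaSq is a female line and BURP-16SR a male line, so that sex, subtype and line cannot be told apart in this comparison. In BURP-24BaSq 2 of 35 genes tested were called higher and 11 lower. This is 37.1%, against 29% of all 18283 genes tested (13.2% higher and 15.8% lower). Timp2 was at 64.3, 55.4 and 72.0 CPM and Timp1 at 8.46, 7.53 and 9.25 CPM in C81-M1, C81-M30 and P2 of BURP-24BaSq, with log2 fold changes of -2.74 (SE 0.17, adjusted p = 1.04e-04, edgeR) and -3.46 (SE 0.23, adjusted p = 1.19e-04). Both were far under BURP-16SR in every tumor. The others lower in BURP-24BaSq were 7 Adamts genes, Mmp9 and Mmp19, with log2 fold changes from -1.49 for Adamts6 to -3.94 for Adamts14. Adamts14 was at 1.57, 2.16 and 1.60 CPM, Adamts7 at 2.53, 5.74 and 3.70 CPM and Adamts4 at 5.32, 8.01 and 8.01 CPM in the 3 BURP-24BaSq tumors, each under all values of BURP-16SR given above. Adamts9 was at 13.7, 16.01 and 13.1 CPM and Adamts10 at 10.4, 8.96 and 8.09 CPM, the latter against 20.3, 35.6 and 21.3 CPM in BURP-16SR. Adamts2, at 10.03, 16.2 and 15.9 CPM, and Adamts6, which was at 10.03, 9.85 and 9.16 CPM against 15.8, 44.5 and 17.9 CPM, came nearer to P5 of BURP-16SR than to its other tumors. Mmp19 was at 2.03, 3.64 and 4.56 CPM, close to the 5.07 CPM of P5. For Mmp9, C81-M30 reached 34.9 CPM, whereas C81-M1 and P2 were at 3.75 and 8.67 CPM. Mmp28, at 18.1, 11.0 and 14.6 CPM, and Mmp15, at 21.4, 12.6 and 19.8 CPM, were higher in BURP-24BaSq (log2 fold changes 3.38, SE 0.52, and 1.28, SE 0.38). Of the 35 genes 14 did not overlap, the 13 called genes among them, while 53.5% of all genes did not, so that the share was not above the background. Fibroblast (3 of 9), endothelial (5 of 5) and mast cell markers (4 of 4) were called lower and epithelial markers (5 of 5) higher in BURP-24BaSq, and their part was not tested. With each of the 6 tumors left out in turn, the call of Adamts2 was lost in 5 fits, those of Adamts6 and Mmp19 in 4, those of Mmp9 and Mmp15 in 3 and that of Adamts9 in 2, while the other 7 remained. Leaving out P5 of BURP-16SR raised the number of called genes from 13 to 25, and leaving out C81-M1 or P2 of BURP-24BaSq lowered it to 7 and 8.

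Lines of the Ba/Sq subtype differed among themselves in inhibitors and proteases. An F test over the 6 lines called 13 of 40 genes, which is 32.5%, against 39.4% of all 20523 genes tested, so that the share was not above the background. They were 3 of 3 Timp, 5 of 20 Mmp and 5 of 17 Adamts genes tested. Timp2 was highest in BURP-17BaSq (303, 103 and 233 CPM) and BURP-18BaSq (205, 72.1 and 250 CPM) and lowest in BURP-12BaSq (17.9, 26.3 and 33.6 CPM), whose tumors were all below every other Ba/Sq tumor (adjusted p = 6.52e-04, edgeR). Timp1 was highest in BURP-18BaSq, at 52.3, 14.3 and 40.0 CPM, and lowest in BURP-12BaSq, at 2.44, 2.95 and 2.57 CPM, with a log2 range over the lines of 3.75 (adjusted p = 0.00216). Timp3 was at 530, 314 and 180 CPM in BURP-21BaSq and at 14.3, 18.1 and 36.3 CPM in BURP-12BaSq (log2 range 3.90, adjusted p = 0.0106). In BURP-25BaSq it was at 63.5 and 57.8 CPM in C102-M3 and C102-M30 and at 176 CPM in C102-M1, the library in doubt.

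BURP-12BaSq, low in all inhibitors, was the highest line in Adamts15, at 88.5, 93.0 and 113 CPM, and these 3 tumors stood above the other 15 (log2 range 4.17, adjusted p = 3.45e-04). Adamts15 was between 14.9 and 58.4 CPM in BURP-17BaSq and BURP-18BaSq and between 3.41 and 18.7 CPM in the 3 female lines. The ratio of the Timp to the Mmp sum was lowest in BURP-12BaSq too, at 0.192, 0.171 and 0.330. Fibroblast markers were low in that line, with a sum of 213 to 460 CPM, and their part in its low Timp levels was not tested.

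Adamts1 (chromosome 16, 85793827 to 85803113), a proteoglycan-cutting protease that was the fourth of all 45 genes in level per length, was at 39.4, 51.5 and 46.0 CPM in BURP-18BaSq, below every other Ba/Sq tumor, and highest on average in BURP-17BaSq at 164, 135 and 226 CPM (log2 range 1.93, adjusted p = 0.0250). It was at 47.6, 98.1 and 74.2 CPM in BURP-16SR and at 48.7, 99.4 and 35.2 CPM in BURP-19NE, and neither line differed from the Ba/Sq tumors beyond the threshold (log2 fold changes -0.74 and -1.06, adjusted p = 0.263 and 0.104). The call among the lines was lost whichever BURP-18BaSq tumor was left out. Mmp28 was highest in BURP-18BaSq, at 160, 49.1 and 36.3 CPM, and lowest in BURP-21BaSq, at 10.8, 11.9 and 8.06 CPM (adjusted p = 0.00148). Mmp14 varied least of the called genes, with line means from 106 CPM in BURP-25BaSq to 214 CPM in BURP-17BaSq (log2 range 1.02, adjusted p = 0.00581).

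Mmp7, or matrilysin, was found almost only in BURP-17BaSq, at 4.42, 4.67 and 1.08 CPM. Elsewhere its highest level was 0.704 CPM, in C41-M3 of BURP-12BaSq, and 16 tumors had no count (adjusted p = 0.00785, edgeR). DESeq2 did not call it (adjusted p = 0.109). Adamts18 was at 52.2 and 9.34 CPM in C102-M3 and C102-M30 of BURP-25BaSq and at 0.0559 CPM, or 1 count, in C102-M1. In BURP-24BaSq it was at 6.69, 6.22 and 2.51 CPM, and no other tumor passed 2.47 CPM. Its call (adjusted p = 0.00813) was lost without C102-M3. The other called genes were Adamts10, Adamts20, Mmp16 and Mmp24, of which only Adamts10 passed 5 CPM in a Ba/Sq tumor. Leaving out C165-M30 of BURP-17BaSq or P4 of BURP-18BaSq raised the number of called genes from 13 to 21 and 20.

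Between the 9 male and 9 female Ba/Sq tumors, 1 of 33 genes tested was called, 3.03% against 2.31% of all 17922 genes. It was Adamts15, with a lowest of 14.9, a median of 53.8 and a highest of 113 CPM in the male lines and a lowest of 3.41, a median of 4.79 and a highest of 18.7 CPM in the female lines (log2 fold change 3.08, SE 0.45, adjusted p = 0.00179, edgeR). C102-M30, with 61.9% ribosomal counts, was the female tumor within the male range. Sex is carried by 3 lines on each side, and neither with counts summed per line nor with the line as a random effect in limma-voom was any member called. Without C102-M3 of BURP-25BaSq 3 genes were called, and without P4 of BURP-17BaSq there were 2. Timp1, Timp2 and Timp3 had log2 fold changes of 1.21, 1.17 and -0.35 and were not called (adjusted p = 0.210, 0.135 and 0.802).

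Genes of the wider pathway were counted from lists chosen alongside the members. Of 12 tested activators and other inhibitors, 8 were called higher in BURP-16SR than in the Ba/Sq tumors and none lower. Over all genes tested, 10.5% were called higher and 8.62% lower. Among the 8 were Plau, its receptor Plaur, Serpine2, Pcsk5, Reck, A2m and Tfpi2. All of these but Plaur overlapped between the groups, and Pcsk5, Reck, A2m and Tfpi2 were uneven in BURP-16SR. Plaur was at 192 ± 61.3 CPM (SD, n = 3) against 3.85 to 65.0 CPM (log2 fold change 3.16, SE 0.50, adjusted p = 8.40e-05, edgeR). In BURP-19NE, Reck was called higher and Plau, Plat and A2m lower, of 12 tested, against 9.33% and 15% of all genes. A2m was at most at 0.0451 CPM in that line, under the smallest level that can be read. Plau and Plat are the plasminogen activators, and plasmin activates several MMP precursors.

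Of 4 tested ADAMTS substrates, all 4 were called higher in BURP-16SR (Acan, Vcan, Comp and Vwf), against 10.5% of all genes tested. Comp was uneven, from 0.139 to 33.6 CPM in BURP-16SR against 0 to 11.1 CPM in the Ba/Sq tumors. Vcan and Vwf overlapped between the groups as well. In BURP-16SR, Acan, the aggrecan core protein, averaged 110 ± 41.7 CPM (SD, n = 3), while no Ba/Sq tumor passed 1.15 CPM (log2 fold change 8.95, SE 0.53, adjusted p = 4.62e-11, edgeR). In BURP-19NE, Acan and Vcan were higher and Vwf lower, of 4 tested, against 9.33% and 15% of all genes. Among 7 ADAMTS-like proteins, which share domains with the proteases but cut nothing, BURP-16SR had 1 higher (Adamtsl3) and 1 lower (Adamtsl4), and BURP-19NE had 3 lower (Adamtsl1, Thsd4 and Papln). Of all genes tested, 10.5% were higher and 8.62% lower in BURP-16SR, and 15% were lower in BURP-19NE. Adamtsl3 was uneven in BURP-16SR and overlapped with the Ba/Sq tumors.

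Within lines, the members differed in how they followed the fibroblast and macrophage markers. The tumor with the highest fibroblast sum of its line was also the highest of the 3 in Mmp2 in 8 of 8 lines, in Adamts12 in 8 and in Adamts2 and Adamts16 in 7 lines. The tumor with the lowest sum was also the lowest in Mmp2 in 8 lines and in Adamts2 and Adamts4 in 7. Among other genes tested, 1.38% had the same top tumor in 7 or more lines and 1.02% the same bottom tumor. For Timp2 and Mmp14 the top tumor was the same in 3 and 4 lines, for Timp3, Mmp28 and Adamts1 in 1 line each and for Mmp7 in none. With the macrophage sum, the top tumor was the same in 7 lines for Mmp19, 6 for Mmp3 and 4 for Mmp2. The bottom tumor was the same in 7 lines for Mmp25 and Timp1. Among other genes, 0.891% and 2.04% reached 7 or more lines at the top and bottom. Mmp3 shared the top tumor with the fibroblast sum in 6 lines as well. These are counts over 8 lines with no test, and the tumors share libraries between both measures.

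**Figure D5:**
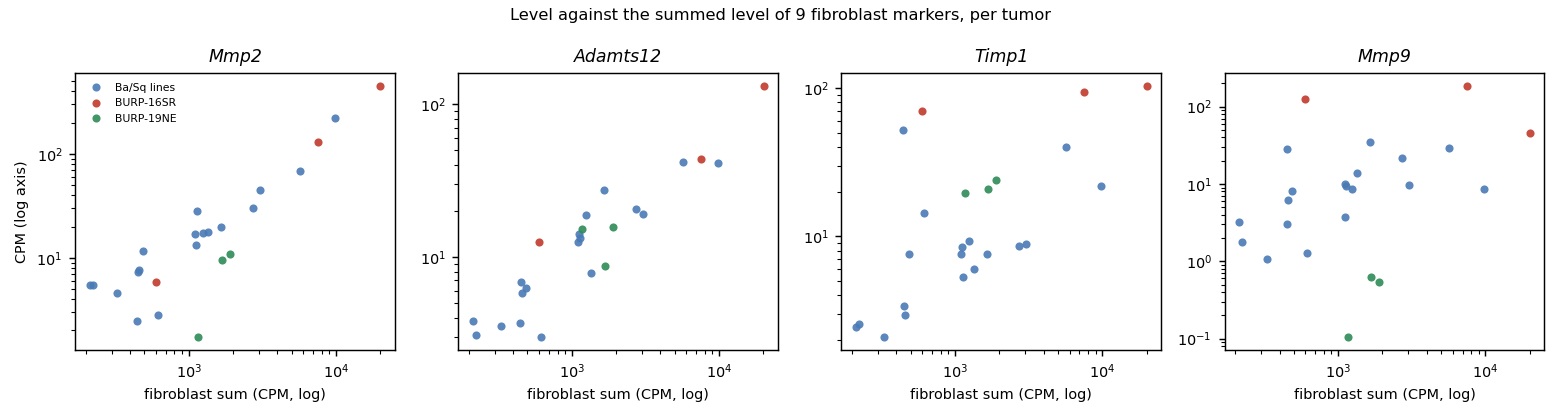
CPM (log axis) of Mmp2, Adamts12, Timp1 and Mmp9 against the summed CPM of 9 fibroblast markers (log axis) in each of the 24 tumors; Ba/Sq tumors are blue, BURP-16SR red and BURP-19NE green. Mmp2 is highest, at 453 CPM, in C74-MNT, the tumor with the highest fibroblast sum, and lowest, at 1.73 CPM, in C80-M3 at a sum of 1166 CPM, while Timp1 and Mmp9 of BURP-16SR are high in P5 at a fibroblast sum of 596 CPM too.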

How the data were processed

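RNA of 24 allograft tumors, depleted of ribosomal RNA, was sequenced in pairs of reads. The deposited values are estimated counts per gene, which the authors made with STAR 2.6.0a on GRCm38 with GENCODE M16 and with RSEM 1.3.1. The processing notes also name CASAVA 1.8.2. Of the values 12.5% were not whole, and all were rounded.

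Groups were taken from the titles of the tumors. Each comparison was fitted in edgeR 4.0.16 (R 4.3.3) on all genes that passed filterByExpr, with TMM normalization and the quasi-likelihood test, and p-values were adjusted by Benjamini-Hochberg over all genes tested. Genes with a change of more than 2-fold in either direction and an adjusted p under 0.05 were called, with, among the Ba/Sq lines, a log2 range over 1 in an F test in place of the change. The SE given with a log2 fold change is its size divided by the square root of the F statistic of the test. There were 6 comparisons. Those of BURP-16SR and BURP-19NE share the Ba/Sq tumors, and BURP-16SR tumors enter 3 comparisons, so that these are not independent. Total counts between 9295747 and 25370356 set the precision, and 3 counts were the floor.

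Symbols and coordinates came from GENCODE M21 (GRCm38), which held 99.8% of the identifiers, and promoters from RefSeq (GRCm38.p6). Values in every tumor are given for the Timp genes, for members called without overlap of the tumors and for the 10 members of the highest mean level per length. Other members are given by counts and ranges, or where a group of genes is described. Of other pathway genes, those called are named, with values for at most 6. A called gene of these lists is not reported here. The rule on names uses no measured value, but these families, the gene lists and the markers of cell types were chosen with earlier results of these data known. Alternatives were DESeq2 1.42.0 and its size factors, other filters, libraries left out, and for sex, limma 3.58.1 (voom). The scripts were tested on simulated data, where between 85% and 97% of changed genes were found and at most 5.03% of the calls were false. The planted changes were larger than the threshold of the calls, and the simulated tumors were independent with 1 fixed spread for all genes. These shares therefore check the scripts and do not carry over to the real tumors.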

Additional observations from a re-analysis of the deposited data

Results flagged for a closer look

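Of the 9 male Ba/Sq tumors, P4 of BURP-17BaSq stood apart in Timp3, at 585 CPM with the next tumor at 293 CPM. Among the 9 female Ba/Sq tumors, C102-M30 of BURP-25BaSq stood apart in Adamts15, at 18.7 CPM with the next at 8.00 CPM, and P4 of BURP-21BaSq in Timp2, at 107 CPM with the next at 72.0 CPM. The gap to the next tumor was 0.512, 0.699 and 0.504 of the range of the group, and chance alone sets some groups apart by this measure.

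Mmp9 and Adamts2 moved in opposite directions in BURP-16SR and BURP-19NE against the same Ba/Sq tumors, and the direct comparison of both lines gave log2 fold changes of 8.16 for Mmp9 (adjusted p = 0.00126, edgeR) and 4.87 for Adamts2 (adjusted p = 0.00901). All 3 BURP-16SR tumors were above all 3 BURP-19NE tumors in both genes. The call of Adamts2 against the Ba/Sq tumors was lost in 11 of 21 fits with a tumor left out for BURP-16SR and in 8 of 21 for BURP-19NE, those without any 1 BURP-19NE tumor included, while it was lost in 0 of 6 in the direct comparison.

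Mmp1a, annotated as a polymorphic pseudogene and therefore not among the 45 genes, had counts in 3 tumors, with at most 4 counts in 1 tumor.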

How the results depend on the processing

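No paired analysis was possible because the titles give a cage and mouse or a passage, which pair no tumors across lines. The number of called members, 20 in BURP-19NE against Ba/Sq and 13 among the Ba/Sq lines, fell to 9 and 7 when at least 10 counts in every tumor were required, which left fewer genes to test. Between the sexes 1 member was called, with 2 in DESeq2, 2 without a filter on low counts, 0 with counts summed per line and 0 with the line as a random effect in limma-voom. With 1 tumor left out at a time, the number called ran from 8 to 18 in BURP-16SR against Ba/Sq, from 11 to 22 in BURP-19NE against Ba/Sq, from 7 to 21 in BURP-16SR against BURP-19NE, from 7 to 25 in BURP-24BaSq against BURP-16SR, from 13 to 21 among the Ba/Sq lines and from 1 to 3 between the sexes. The alternatives were read for the called members and for Timp1, Timp2 and Timp3, and among these the direction turned only for Timp3, which was not called in the comparisons given next. Its log2 fold change in BURP-16SR against Ba/Sq ran from -0.48 (without C74-MNT) to 0.37 with 1 tumor left out and was -0.0215 without C102-M1 and C102-M30, and between the sexes it ran from -1.08 to 0.0566 (without P4 of BURP-21BaSq). The cause was not tested. The alternative without both C102-M1 and C102-M30 was chosen after seeing the data. Genes with fewer than 3 counts in a tumor cannot be told from 0 at this depth.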
